A study of Sus scrofa with 17 samples.

Results

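The mitochondrial ribosomal protein genes are the genes whose symbol in the count table begins with MRPL or MRPS followed by a number. The table held 68 of them among its 35670 genes, each symbol on a single line. All 68 passed the low-count filter, as did 15884 genes in all, and the smallest count of any member in any library was 198 (MRPL57). By known place in the ribosome, 23 belong to the small subunit (13 with a bacterial counterpart and 10 specific to mitochondria) and 44 to the large subunit (25 and 19). The remaining gene, MRPS36, carries the name but is now counted with the 2-oxoglutarate dehydrogenase complex.

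The mitochondrial ribosome translates the few messages encoded by mitochondrial DNA, all of which give membrane subunits of the respiratory chain and ATP synthase. Its RNAs are made inside the organelle, whereas all of its proteins are encoded in the nucleus and imported. Heart muscle is rich in mitochondria, and inherited defects of several of these proteins, among them MRPL3, MRPL44 and MRPS22, are known to cause cardiomyopathy in infants.

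RNA was sequenced from the right ventricle of pigs (Sus scrofa) that all had right ventricular pressure overload, controls included. Umbilical cord blood mononuclear cells were injected into the myocardium repeatedly (multidose, n = 7) or once (single dose, n = 5), and vehicle control animals (n = 5) received none. Each library is a different animal, and RNA below a set integrity was not sequenced. Cell number per dose, times of dosing and harvest, age, strain, sex, weight and batch are given for no library in the sources used here, and no unloaded heart was analysed here.

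The library names fall into those beginning with M1 (4 multidose and 1 single dose) and those beginning with M8 or M9 (3 multidose, 4 single dose and all 5 vehicle controls). The labels do not say what these names stand for. M1 libraries held 21754800 to 40969168 counts and M8/M9 libraries 40621934 to 61144663, so that the name, the depth and in part the dosing group cannot be told apart. Cardiomyocyte markers were present throughout, with 10 of 10 above 1 CPM in every group and a summed level of 45870 to 85260 CPM (the count relative to the library size after TMM scaling). Tissue RNA mixes cell types, so fewer cells of a type and less RNA per cell cannot be told apart in any result below.

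Averaged over the 68 members, log2 CPM was 5.45 ± 0.11 (SD, n = 7) under multidose, 5.36 ± 0.19 (SD, n = 5) under single dose and 5.17 ± 0.23 (SD, n = 5) under vehicle. The vehicle controls stood at 5.11, 5.26, 4.81, 5.26 and 5.42, and the single dose animals at 5.57, 5.43, 5.31, 5.06 and 5.42. In the multidose group the lowest was 5.28, the median 5.43 and the highest 5.63. The 3 groups overlapped. Vehicle control 3 was the lowest library of all, and 50 of the 68 members had their lowest level there. Mean log2 CPM there was also the lowest for cytoplasmic ribosomal proteins (7.504, against 8.39 to 9.429 elsewhere). The same held for nuclear subunits of oxidative phosphorylation (7.271, against 7.558 to 8.473). Factors of mitochondrial ribosome assembly (3.966, against 3.851 to 4.158) and mitochondrially encoded proteins (11.97, against 11.87 to 13.16) lay within the range of the others. This library had the most counts (61144663). It also had the lowest share of counts from mitochondrially encoded genes (12.4%, against 13.9 to 23.0% elsewhere). Its summed cardiomyocyte markers, at 65910 CPM, lay within the range of the other libraries, where the lowest was vehicle control 1 at 45870 CPM. The part of depth and of the mitochondrially encoded share in the low level of the members was not tested.

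**Figure D1:**
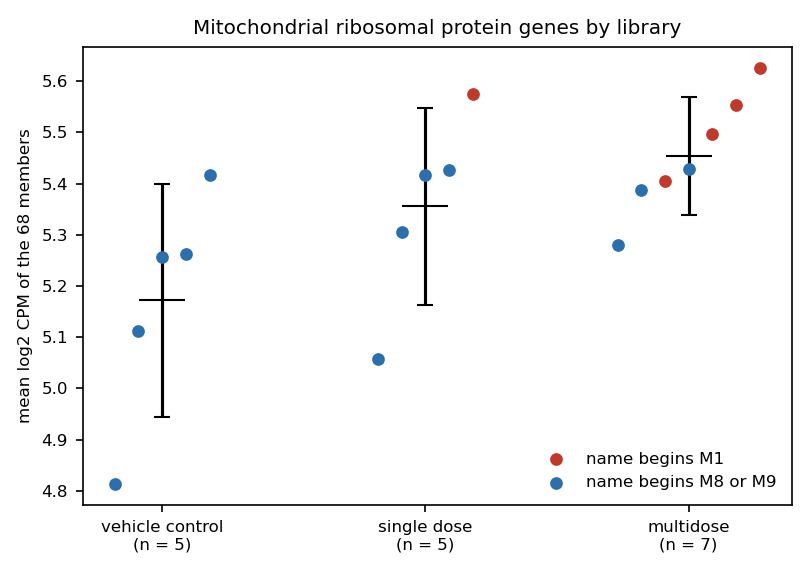
Mean log2 CPM of the 68 mitochondrial ribosomal protein genes in each library (points), by group, with the group mean (bar) and SD (whiskers) and the library name set in colour. The 3 groups overlap, the lowest point is vehicle control 3 at 4.81, and the 5 M1 libraries lie between 5.41 and 5.63.

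By name set, the members averaged 5.53 ± 0.08 log2 CPM in M1 libraries (SD, n = 5) and 5.26 ± 0.19 in M8/M9 libraries (SD, n = 12). The 5 M1 libraries ran from 5.41 to 5.63, while the M8/M9 libraries ran from 4.81 through a median of 5.29 to 5.43. Among multidose animals alone, the 4 M1 libraries averaged 5.52 ± 0.09 (SD, n = 4) and the 3 others 5.37 ± 0.08 (SD, n = 3). The M1 library with the most counts, multidose 4 (40969168), had the lowest mean of the 5 at 5.41. Multidose 5, of the other name set, stood above it at 5.43.

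With multidose set against vehicle control, 0 of 68 members passed the threshold of 0.05 on the adjusted p of edgeR, where 0% of all genes passed. The values nonetheless leaned one way. Among the members, 64 of 68 had a positive log2 fold change, against 49.3% of all genes, and the median was 0.30 against -0.01 for all genes. At an unadjusted p under 0.05 there were 30 members, all positive, which is 44.1% of them against 6.74% of all genes in that direction and 12.6% in both. Here and in the comparisons below, the members were measured in the same animals, so such counts are not of separate observations. DESeq2 and limma-voom called 0 members as well, with 30 and 32 at an unadjusted p under 0.05. Within M8/M9 libraries alone the median was 0.15 with 63 positive members and 2 at an unadjusted p under 0.05, and with the M1 name as a covariate it was 0.15 with 66 and 4. Without vehicle control 3 it was 0.21 with 62 positive and 17 at an unadjusted p under 0.05. For these alternative fits the share of all genes at an unadjusted p under 0.05 was not counted.

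Among small subunit genes, the smallest p was that of MRPS23, a protein specific to the mitochondrial ribosome (chromosome 12, 34123679 to 34129574). Vehicle controls had 20.04, 23.3, 16.1, 24.3 and 23.8 CPM and single dose animals 26.5, 28.6, 22.1, 23.2 and 27.8 CPM. Multidose animals ran from 25.1 through a median of 30.1 to 34.4 CPM. Every multidose value thus lay above every control value, with the single dose values in between and overlapping both. The log2 fold change of MRPS23 was 0.48 (edgeR adjusted p = 0.366, SE 0.12), and under the alternatives the adjusted p ran from 0.0874 to 1. It was the single member whose multidose and control levels did not overlap, where 0.145% of all genes were separated in that direction and 0.126% in the other. In M8/M9 libraries alone its log2 fold change was 0.43 (SE 0.16).

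The next smallest p-values belonged to 2 large subunit genes with bacterial counterparts and to MRPS36. MRPL9 (chromosome 4, from RefSeq) was at 49.8, 49.5, 43.8, 50.4 and 60.04 CPM in vehicle controls and at 58.6 to 72.2 CPM, median 67.0, in multidose animals. Only vehicle control 5 reached into the multidose range. For MRPL9 the log2 fold change was 0.40 (edgeR adjusted p = 0.366, SE 0.11). MRPL24, which lies near the exit of the peptide tunnel, was at 73.0, 79.9, 62.2, 85.9 and 93.9 CPM in controls and at 86.3 to 137 CPM, median 113, in multidose animals. Its log2 fold change was 0.51 (SE 0.16) in all libraries and 0.28 (SE 0.17) in M8/M9 libraries.

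MRPS36, an adaptor that ties the E3 component to the 2-oxoglutarate dehydrogenase complex, was at 119, 131, 75.2, 135 and 154 CPM in controls. In multidose animals it ran from 136 through a median of 175 to 221 CPM. The groups overlapped through vehicle control 5. Its log2 fold change was 0.56 (edgeR adjusted p = 0.366, SE 0.18), and 0.29 (SE 0.20) in M8/M9 libraries.

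The members with known links to cardiomyopathy had log2 fold changes of 0.38 (MRPL3, SE 0.15), 0.15 (MRPL44, SE 0.11) and 0.28 (MRPS22, SE 0.16), none past the threshold. MRPL12, the stalk protein that is also known to bind the mitochondrial RNA polymerase, stood at 131 ± 19.7 CPM in multidose animals (SD, n = 7) and 99.7 ± 18.6 CPM in controls (SD, n = 5). That difference came to 0.40 on the log2 scale (SE 0.14). The 3 relatives of bacterial S18 differed in size, with 0.35 for MRPS18B (SE 0.18), 0.37 for MRPS18C (SE 0.13) and 0.14 for MRPS18A (SE 0.14), the last of which sits in the large subunit. MRPL58, a peptidyl-tRNA hydrolase built into the large subunit, was at 0.35 (SE 0.15) and at 0.01 (SE 0.15) in M8/M9 libraries.

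Negative values were few and small. They were those of MRPS2 (log2 fold change -0.15, SE 0.11), MRPL57 (-0.11, SE 0.22), MRPS12, a protein of the decoding site (-0.07, SE 0.15), and MRPL4, which lines the peptide tunnel (-0.04, SE 0.18). The signs of MRPL57, MRPS12 and MRPL4 turned positive in M8/M9 libraries alone, at 0.04, 0.0048 and 0.30. No member was lower in the multidose group at an unadjusted p under 0.05, where 5.83% of all genes were.

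Against vehicle control, the single dose also had 0 of 68 members past the threshold (edgeR, 0% of all genes). Positive values numbered 61 of 68, against 50.4% of all genes, with a median of 0.19 against 0.0025. At an unadjusted p under 0.05 stood 4 members, all positive, or 5.88% against 2.42% of all genes in that direction (5.26% in both, 2.84% negative). No member separated the groups fully, where 0.422% of all genes did upward and 0.453% downward. DESeq2 and limma-voom called 0, with 4 and 2 at an unadjusted p under 0.05. The median was 0.12 within M8/M9 libraries, and it was 0.11 without vehicle control 3 and 0.25 without single dose 4. In the fit without single dose 4, 17 members had an unadjusted p under 0.05. The share of all genes at that p was not counted in the alternative fits, so a change particular to the members cannot be read from it.

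The 4 members were MRPL13, MRPL16 and MRPL19, which have bacterial counterparts, and MRPL49, which has none. MRPL13 was at 37.7, 28.7, 29.9, 22.3 and 22.9 CPM in single dose animals and at 19.3, 25.4, 16.2, 22.8 and 22.2 CPM in controls. Single dose 4 and single dose 5 lay within the control range. Its log2 fold change was 0.42 (edgeR adjusted p = 0.891, SE 0.16), and 0.29 (SE 0.15) in M8/M9 libraries.

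MRPL16 was at 46.1, 45.7, 47.5, 33.2 and 40.4 CPM in single dose animals and at 31.2, 33.9, 32.7, 31.4 and 41.0 CPM in controls, where vehicle control 5 stood apart from the other 4. The log2 fold change of MRPL16 was 0.32 (SE 0.14). MRPL49, whose gene overlaps FAU and SYVN1 in RefSeq, had 0.39 (SE 0.18). The most negative value was that of MRPL57, at -0.27 (SE 0.24), followed by MRPS2 at -0.08 (SE 0.12), MRPL28 at -0.02 (SE 0.19) and MRPL4 at -0.02 (SE 0.20).

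Of the members with known cardiomyopathy links, MRPL3 had a single dose log2 fold change of 0.21 (SE 0.16), MRPL44 one of 0.01 (SE 0.12) and MRPS22 one of 0.15 (SE 0.17). MRPL12 had 0.23 (SE 0.15), MRPL58 0.22 (SE 0.16) and MRPS36 0.24 (SE 0.19). MRPS12 was at -0.01 (SE 0.16), MRPS18A at -0.01 (SE 0.15), MRPS18B at 0.21 (SE 0.19) and MRPS18C at 0.26 (SE 0.14). None of these passed the threshold.

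The direct comparison of multidose with single dose had 0 members past the threshold (edgeR, 0% of all genes) and 0 at an unadjusted p under 0.05, where 2.11% of all genes stood (0.888% positive, 1.22% negative). No member had groups that did not overlap, against 0.0378% of all genes upward and 0.0315% downward. DESeq2 also had 0 at an unadjusted p under 0.05 and limma-voom had 10, none of them called by either. For DESeq2 and limma-voom the share of all genes at that p was not counted. Positive values numbered 57 of 68, against 50.5% of all genes, with a median of 0.10 against 0.0018. Within M8/M9 libraries the median was 0.05 with 45 positive members, and without single dose 4 it was 0.03 with 42. The comparisons with vehicle control share their control animals, so their values stand side by side here and are not correlated.

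The smallest p-values were those of MRPL33, MRPS23, MRPL9 and MRPS36, with log2 fold changes of 0.40 (SE 0.21), 0.23 (SE 0.12), 0.20 (SE 0.11) and 0.32 (SE 0.18). MRPL33 was at 115, 82.6, 64.8, 72.5 and 85.9 CPM in single dose animals and at 80.6 to 125 CPM, median 120.5, in multidose animals. In both groups its higher values were those of the M1 libraries, with multidose 5 at 125 CPM as the exception. On the negative side stood MRPL35 (-0.06, SE 0.09), MRPS2 (-0.07, SE 0.11), MRPL13 (-0.08, SE 0.15) and MRPL10 (-0.05, SE 0.12). Values for the other members tracked here lay between -0.05 (MRPS12) and 0.17 (MRPL3).

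**Figure D2:**
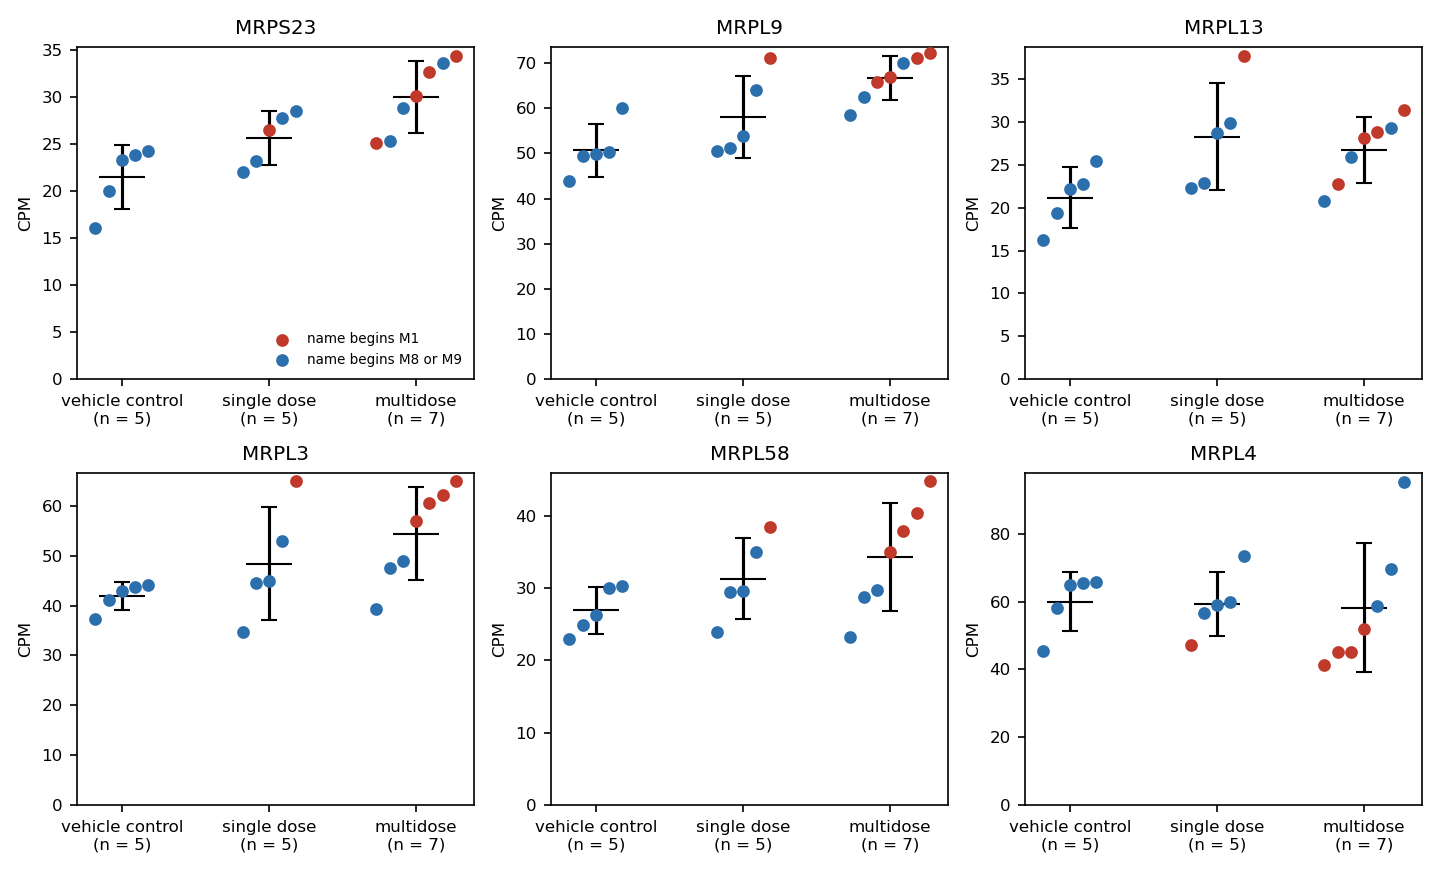
Level in CPM of 6 members in each library (points, coloured by library name set) with the group mean and SD, on axes that start at 0. In MRPS23 the multidose points all lie above the control points, while in MRPL3 and MRPL58 the M1 points are the upper ones of their groups and in MRPL4 the lower ones.

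Between the library name sets, with dosing group as a covariate, 11 of 68 members passed the threshold of edgeR. That is 16.2% of the members against 14% of all genes, a share near the background. The directions were unequal. Higher in M1 libraries were 10 members (14.7%, against 5.92% of all genes), and lower was 1 (1.47%, against 8.06%). The median log2 fold change was 0.23 against -0.01 over all genes, and 53 of 68 values were positive against 48.6%. Since all controls carry M8/M9 names, this contrast is set by the 12 dosed animals.

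Of the 10 members that rose, MRPL3 had the smallest p (chromosome 13, 984985 to 1024185, overlapping another RefSeq gene model). Its M1 libraries stood at 62.2, 60.6, 65.1 and 56.9 CPM in the multidose group and 65.1 CPM in the single dose group. M8/M9 libraries ran from 34.8 through a median of 44.0 to 53.0 CPM. The 2 sets did not overlap. The log2 fold change of MRPL3, a protein of the large subunit core, was 0.47 (edgeR adjusted p = 0.00993, SE 0.11).

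MRPL58 was at 44.9, 40.4, 37.9 and 35.0 CPM in multidose M1 libraries and 38.5 CPM in the single dose one. M8/M9 libraries ran from 23.0 through 29.1 to 35.0 CPM, so that the sets met at 35.0 CPM after rounding. It rose by a log2 fold change of 0.49 (edgeR adjusted p = 0.0138, SE 0.12). The gene lies on chromosome 12, 6258674 to 6265865, and no other RefSeq gene overlaps it.

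Small subunit genes gave 2 of the risers. MRPS31, specific to mitochondria (chromosome 11, 15450698 to 15472320), was at 36.9, 36.1, 40.0, 39.6 and 42.7 CPM in M1 libraries and at 19.8 to 32.6 CPM, median 25.6, in the others. It rose by 0.53 on the log2 scale (edgeR adjusted p = 0.0138, SE 0.13). MRPS18C (chromosome 8, 135019702 to 135026719, overlapping ABRAXAS1 and HELQ) was at 38.0, 34.4, 30.6, 34.1 and 32.9 CPM against 21.1 to 31.3 CPM, median 24.8. Its log2 fold change was 0.41 (edgeR adjusted p = 0.0163, SE 0.10), although the lowest M1 library lay within the range of the others.

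The further 6 members that rose are named after their values were seen. They are MRPL18, MRPL22, MRPL24 and MRPL30, which have bacterial counterparts, and MRPL51 and MRPL52, which do not, with log2 fold changes of 0.45 (MRPL18 and MRPL24) to 0.58 (MRPL52). MRPL51 was close to the threshold, with an adjusted p of 0.0494 in edgeR. MRPL30 showed the widest gap among these, with M1 libraries at 70.8 to 76.3 CPM and M8/M9 libraries at 25.2 to 61.1 CPM. In all, 10 members had M1 levels wholly above M8/M9 levels, against 2.73% of all genes, and none had them wholly below, against 3.01%. These separations, like the M8/M9 ranges given here, take in the vehicle controls and are not adjusted for dosing group.

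MRPL4 was the 1 member that fell (chromosome 2, 69063679 to 69082692, no overlapping RefSeq gene). M1 libraries had 41.3, 45.1, 51.9 and 45.2 CPM in the multidose group and 47.1 CPM in the single dose group. M8/M9 libraries ran from 45.5 through a median of 62.4 to 95.1 CPM, the last being multidose 5. The sets overlapped only through vehicle control 1 at 45.5 CPM, and the lowest dosed M8/M9 library was single dose 4 at 56.6 CPM. MRPL4 fell by 0.60 on the log2 scale (edgeR adjusted p = 0.0107, SE 0.14). It remained called whichever of the 17 libraries was dropped, and also with multidose animals alone.

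Other members tended to lower values without passing. MRPS2 was at -0.26 (edgeR adjusted p = 0.11, SE 0.11), MRPL10, the base of the stalk, at -0.21 (SE 0.11), and MRPS12 at -0.27 (SE 0.16). MRPS18A was at -0.115 (SE 0.15), unlike its relatives MRPS18B at 0.44 (SE 0.16, adjusted p = 0.0691) and MRPS18C, and these differences between genes were not tested. MRPL12 was at 0.08 (SE 0.15), MRPL44 at 0.14 (SE 0.12), MRPS22 at 0.38 (SE 0.15) and MRPS36 at 0.44 (SE 0.16), none of them past the threshold of edgeR.

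**Figure D3:**
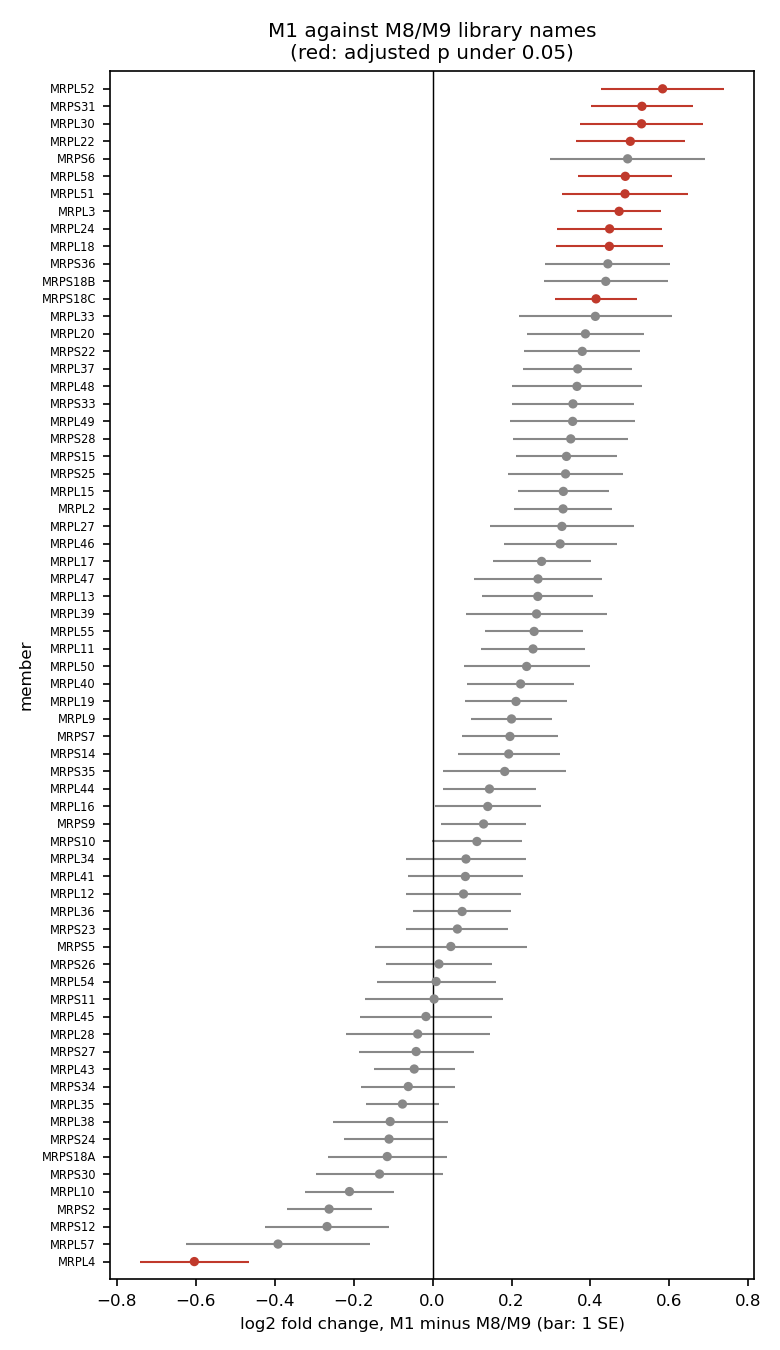
Log2 fold change of each of the 68 members between M1 and M8/M9 libraries (points, with bars of 1 SE), sorted by value, with members past the adjusted p threshold of edgeR in red. Of the 11 red members, 10 lie to the right of 0 and MRPL4, at -0.60, is the leftmost of all.

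The number of calls between name sets depended on single libraries, among all genes (2220 of 15884 with every library) as among the members. Leaving out single dose 1, the one M1 animal of its group, left 3 members (MRPL4, MRPL58 and MRPS18C) and 858 of 16092 genes. Leaving out multidose 6 left 5 members (1247 of 15880 genes), and multidose 1 or multidose 3 left 7 each (1518 of 15865 and 1571 of 15861 genes). Leaving out vehicle control 3 gave 19 members and 2745 of 16013 genes. With multidose animals alone (4 against 3), 5 members passed (MRPL22, MRPL30, MRPL51 and MRPL52 higher, MRPL4 lower), and 712 of 13572 genes. When the 4 libraries under 25000000 counts were left out, a step chosen after seeing the data, multidose 4 remained as the single M1 library. Then the median of the members was 0.04, against -0.03 over all genes. In that fit MRPL4 stood at -0.71 (SE 0.29), MRPS31 at 0.55 (SE 0.26) and MRPL3 at 0.34 (SE 0.22).

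By subunit, the multidose comparison with control had a median log2 fold change of 0.31 for small subunit genes with bacterial counterparts and 0.22 for those specific to mitochondria. For the large subunit these medians were 0.34 and 0.23. Unadjusted p-values under 0.05 were held by 5 of 13, 3 of 10, 16 of 25 and 5 of 19 members. Between name sets the same medians were 0.13, 0.26, 0.27 and 0.22. The members that rose numbered 1 of 13, 1 of 10, 5 of 25 and 3 of 19, where 5.92% of all genes rose. The mean of the large subunit genes minus that of the small subunit genes, a balance within each library, was 0.09 ± 0.05 in multidose animals (SD, n = 7), 0.08 ± 0.03 in single dose animals (SD, n = 5) and 0.04 ± 0.04 in controls (SD, n = 5). These ranges overlapped, since the lowest values were 0.0032, 0.048 and 0.0038 and the highest 0.14, 0.13 and 0.09.

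Individual members varied to different degrees. Over the 17 libraries the SD of log2 CPM had a median of 0.27 across members. It was highest for MRPL33 (0.45), which spanned 1.73 on the log2 scale from vehicle control 3 to multidose 5, and lowest for MRPL35 (0.11), which spanned 0.38. MRPL35 stood at 29.0 to 35.4 CPM in controls, 29.8 to 37.6 CPM in single dose animals and 31.1 to 36.2 CPM in multidose animals, so that the 3 groups covered nearly the same range.

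**Figure D4:**
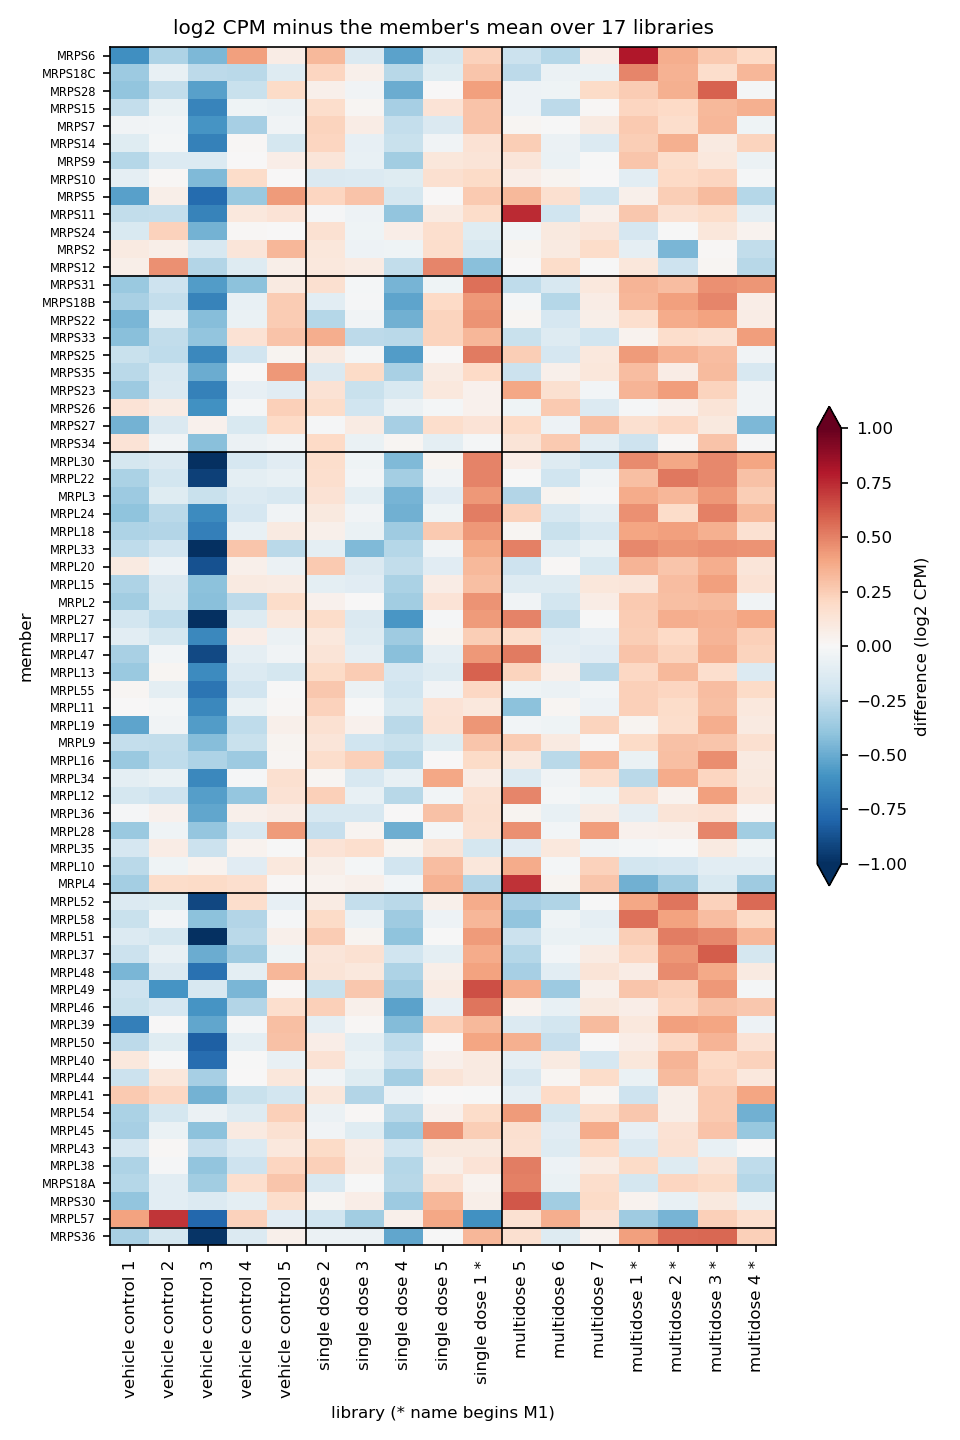
Log2 CPM of each member minus its mean over the 17 libraries, with libraries grouped as vehicle control, single dose and multidose (vertical lines) and members grouped by subunit and origin (horizontal lines), the colour scale ending at 1 and -1. Vehicle control 3 is blue in most rows, where 50 members have their lowest level, and the starred M1 columns are red for most members but blue for MRPL4.

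For 66 members RefSeq gave a position on Sscrofa11.1, spread over 17 chromosomes, and 22 of these overlap another RefSeq gene. The closest pair, MRPS11 and MRPL46, lies 39 bases apart on chromosome 1. In the multidose comparison with control both had a log2 fold change of 0.34, with an SE of 0.17 for MRPS11. Between name sets MRPS11 was at 0.0038 (SE 0.18) and MRPL46 at 0.32, and this difference was not tested. The pair was chosen by distance and named after its values were seen.

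The genes around the mitochondrial ribosome were read from lists of known function. In the 3 dosing comparisons 0 genes of each of the 9 lists passed the threshold of edgeR. For multidose against control, the median log2 fold change was 0.19 for 5 ribosomal proteins under other symbols, 0.15 for 16 translation factors, 0.10 for 19 aminoacyl-tRNA synthetases and 0.04 for 27 assembly and rRNA modification factors. It was 0.11 for 18 genes of mitochondrial DNA transcription and replication and -0.14 for 11 nuclear regulators of mitochondrial biogenesis. These medians lay below the 0.30 of the members. Within M8/M9 libraries the gap was smaller for several lists, with 0.11 for the ribosomal proteins under other symbols, 0.13 for translation factors, 0.14 for synthetases and 0.12 for assembly factors beside 0.15 for the members. There the transcription and replication genes had 0.03 and the nuclear regulators -0.05. These differences between lists were not tested.

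With all libraries fitted, 3 lists had larger medians than the 0.30 of the members, and only the first holds products of the mitochondrial ribosome. The 12 mitochondrially encoded proteins had a median log2 fold change of 0.37 (12 of 12 positive, 2 at an unadjusted p under 0.05) for multidose against control, and 72 nuclear subunits of oxidative phosphorylation had 0.32 (69 positive, 26 at an unadjusted p under 0.05). The 56 cytoplasmic ribosomal proteins had 0.47 (56 positive, 19 at an unadjusted p under 0.05). Within M8/M9 libraries the medians were 0.37 for the mitochondrially encoded proteins, 0.15 for the nuclear subunits and -0.02 for the cytoplasmic ribosomal proteins, beside 0.15 for the members. Cardiomyocyte markers had a median of 0.43 in all libraries with 0 of 10 past the threshold, and their part in the values of the members was not tested.

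Between name sets, 41 of 56 cytoplasmic ribosomal proteins rose in M1 libraries and none fell, with a median of 0.67. Of all genes, 5.92% rose and 8.06% fell. Among nuclear oxidative phosphorylation subunits 11 of 72 rose and none fell, with a median of 0.34. By p these were led by COX7A1 at 1.13 (edgeR adjusted p = 0.00305, SE 0.19), and by size by COX8H at 1.27 (edgeR adjusted p = 0.0095, SE 0.28). None of the 12 mitochondrially encoded proteins passed (edgeR, 0 at an unadjusted p under 0.05), and their median was 0.07. CHCHD1, a small subunit protein outside the MRP naming, rose by 0.53 (edgeR adjusted p = 0.0134, SE 0.13), the single riser of its 5 genes.

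The assembly factors leaned the other way. Their median between name sets was -0.17, with 20 of 27 negative, against 8166 of 15884 genes. Past the threshold 2 were lower and 1 higher, where 8.06% of all genes were lower and 5.92% higher. MTG2, a GTPase of large subunit assembly, fell by 0.68 (edgeR adjusted p = 0.00305, SE 0.12), while MTG1, another such GTPase, rose by 0.70 (edgeR adjusted p = 0.0147, SE 0.17). Among translation factors SLIRP, which stabilises mitochondrial messages, rose by 0.74 (edgeR adjusted p = 0.0222, SE 0.20) and the initiation factor MTIF3 fell by 0.54 (edgeR adjusted p = 0.0123, SE 0.13), so that 2 of 16 rose and 1 fell.

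In mitochondrial DNA transcription, TFAM rose by 0.47 (edgeR adjusted p = 0.0439, SE 0.15) and the RNA polymerase POLRMT fell by 0.51 (edgeR adjusted p = 0.00614, SE 0.10), with a median of -0.07 over 18 genes. Of the nuclear regulators, 1 of 11 passed, PPRC1, a coactivator related to PGC-1alpha, which fell by 0.70 (edgeR adjusted p = 0.00187, SE 0.11). Of the synthetases, 1 of 19 rose (WARS2, log2 fold change 0.40, SE 0.12) and 1 fell (PARS2, -0.39, SE 0.12). These single calls per list lay near the shares of all genes, of which 5.92% rose and 8.06% fell.

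Some markers of other cells also differed between the name sets, where 5.92% of all genes were higher past the threshold and 8.06% lower. Of 3 atrial cardiomyocyte markers tested 2 were lower in M1 libraries, where their summed level was 75.0 to 232 CPM against 607 to 4911 CPM in M8/M9 libraries. Fibroblast markers were higher in 3 of 8 (summed level 2773 to 4434 CPM against 1869 to 4251 CPM), and T and natural killer cell markers were lower in 2 of 9 (13.6 to 23.6 CPM against 19.9 to 63.8 CPM). Erythroid markers were higher in 1 of 4, with a median log2 fold change of 1.79 and a summed level of 96.8 to 638 CPM against 25.9 to 506 CPM. Endothelial markers were higher in 1 of 8, and their summed level in M1 libraries lay within the range of the others (958 to 1212 CPM against 779 to 1478 CPM). No marker passed for macrophages (0 of 8), mural cells (0 of 6), B cells (0 of 4), adipocytes (0 of 3) or skeletal muscle (0 of 1). Cardiomyocyte markers had 0 of 10 past the threshold and summed to 65840 to 85260 CPM in M1 libraries against 45870 to 82320 CPM in the others. The part of these cells in the differences of the members was not tested.

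**Figure D5:**
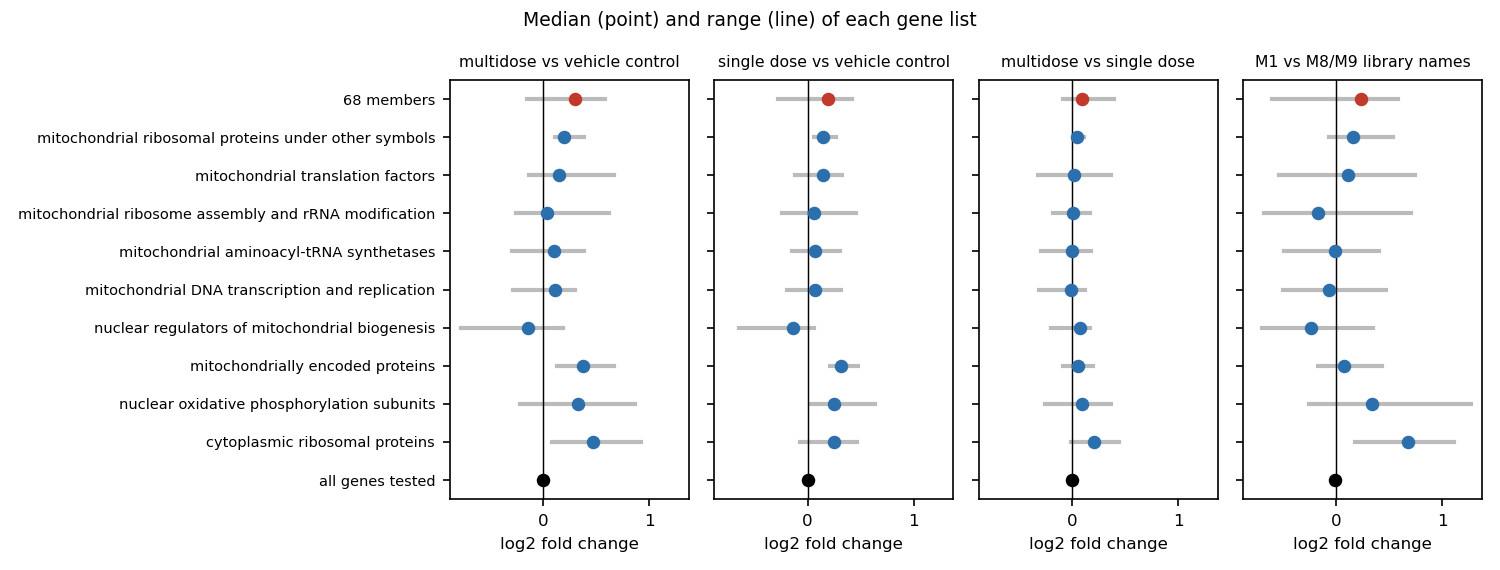
Median log2 fold change of each gene list (points; the 68 members in red, all genes tested in black) with the range over its genes (lines) in the 4 comparisons. The members' median is 0.30, 0.19 and 0.10 in the dosing comparisons and 0.23 between name sets, where the cytoplasmic ribosomal proteins reach 0.67 and the assembly factors lie at -0.17.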

How the data were processed

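The deposited table holds raw counts per Ensembl gene, which the authors made from right ventricular RNA of 17 animals. Subread 1.6.2, HISAT2 2.1.0, Trimmomatic 0.33, FastQC 0.11.7, SAMtools 1.7 and the build Sscrofa11.1 are listed in the submitters' processing notes. The strand setting is, like the annotation release, not given in the sources used here, so reads of overlapping and antisense genes could not be separated.

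Counts were tested with edgeR 4.0.16 in R 4.3.3: filterByExpr (15884 of 35670 genes kept), TMM scaling, a robust two-sided quasi-likelihood test, and Benjamini-Hochberg adjustment over all genes. Dosing comparisons used 1 coefficient per group, and the name set comparison added 1 for names beginning with M1. Log2 CPM carries a prior count of 2. Fold changes are log2, first group minus second. A standard error (SE) is the size of the fold change divided by the square root of its F statistic. Depth was 21754800 to 61144663 counts per library. The script was tested on simulated data, where recovery was required only of changes larger than any fold change of a member given here.

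Members and lists were chosen with earlier results of these data known. Named are, per comparison, the 4 members with the smallest p in each direction, 10 fixed members, and up to 2 genes of a related list. The genes of a related list were those with the smallest p, except COX8H, which was named for the size of its fold change. Alternatives covered scaling, filters, DESeq2 1.42.0, limma 3.58.1 (voom), thinning, covariates, subsets and each library left out. Positions come from RefSeq. Another 9 RefSeq symbols of the family were not analysed here.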

Additional observations from a re-analysis of the deposited data

Results flagged for a closer look

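MRPL16 stood at 41.0 CPM in vehicle control 5, against 33.9 CPM in the nearest other control, a gap that made up 0.724 of the range of the 5 controls (critical value 0.71). It was the single such value in 81 groups of libraries tested, where chance gives about 1 in 20.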

How the results depend on the processing

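The 3 dosing comparisons had 0 members past the threshold under every alternative run, and their medians stayed positive with each library left out (0.21 to 0.37 for multidose and 0.11 to 0.25 for single dose against control, 0.025 to 0.17 for multidose against single dose). Between name sets, 11 members passed, among 2220 of 15884 genes. The count was 35 with limma-voom, 14 with DESeq2 and 32 without the group covariate, where 4553, 3003 and 3783 of 15884 genes passed. It was 21 with dosed libraries only (2767 of 15391 genes) and 5 with multidose libraries only (712 of 13572 genes). With each library left out, 858 to 2745 genes passed, and the member count was 3 to 19. With libraries of at least 25000000 counts only, 1 M1 library was left, and the median of the members was 0.036 against -0.030 over all genes. The median was 0.16 to 0.25 with each library left out. Of the 11 members called, 10 remained after thinning all libraries to the smallest total, where 2056 of 14664 genes passed. No count of any member was under 198.

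For same-numbered libraries, the correlations of their deviations from the group means ran from -0.218 to 0.407. Differently numbered libraries were not compared, so this cannot settle whether they pair. The highest value was among the libraries numbered 1, of which multidose 1 and single dose 1 carry M1 names. With the replicate number as a block, 0 members passed between name sets in edgeR (median 0.35). At an unadjusted p under 0.05 stood 21 members, a share not counted there for all genes. Of all genes, 11 of 15884 passed there, and MRPL10 was at 0.023 and MRPS18A at 0.14. The dosing comparisons kept 0 under the block.

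Only values not past the threshold turned sign, and the cause was not tested. For multidose against control, these were, with the name suffix as a covariate, MRPL57 (0.14) and MRPS12 (0.029), and with the M1 name as a covariate, MRPL57 (0.11), MRPS12 (0.086) and MRPL4 (0.26). In M8/M9 libraries they were MRPL57 (0.041), MRPS12 (0.0048) and MRPL4 (0.30), and with libraries of at least 25000000 counts, MRPL57 (0.037) and MRPL4 (0.16). With each library left out, MRPL57 ran from -0.27 to 0.059, MRPS12 from -0.14 to 0.053 and MRPL4 from -0.20 to 0.022.

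For single dose against control, upper-quartile scaling gave MRPL28 0.0077, MRPL4 0.016, MRPS12 0.017 and MRPS18A 0.021. MRPL44 was at -0.0030 with no filter, -0.085 with limma-voom and -0.023 after thinning. With the M1 covariate MRPL4 was at 0.095, MRPL44 at -0.022, MRPS12 at 0.030 and MRPS18A at 0.016. In M8/M9 libraries MRPL4 was at 0.047, MRPL44 at -0.035 and MRPS12 at 0.075, and with libraries of at least 25000000 counts these were 0.053, -0.029 and 0.080. With each library left out, MRPL28 ran from -0.093 to 0.13, MRPL4 from -0.11 to 0.052, MRPL44 from -0.054 to 0.072, MRPS12 from -0.16 to 0.10 and MRPS18A from -0.076 to 0.075.

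For multidose against single dose, the suffix covariate gave MRPS2 0.0034 and MRPS12 0.044. The M1 covariate gave MRPS2 0.023, MRPL10 0.020, MRPL3 -0.0061, MRPS12 0.056, MRPL58 -0.066, MRPS18B -0.019 and MRPS18C -0.052. M8/M9 libraries gave MRPS2 0.045, MRPL10 0.15, MRPL58 -0.12 and MRPS18C -0.11, and libraries of at least 25000000 counts MRPL10 0.081 and MRPL58 -0.011. With each library left out, MRPL13 ran from -0.16 to 0.045, MRPL10 from -0.11 to 0.027 and MRPS12 from -0.14 to 0.092. Between name sets, MRPS18A was at 0.052 with limma-voom and ran from -0.21 to 0.0053 with each library left out, and MRPL12 was at -0.023 with libraries of at least 25000000 counts.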
